A study of Homo sapiens with 35 samples.

Results

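The genes described here are 7 genes of the HOXA cluster (HOXA3, HOXA5, HOXA6, HOXA7, HOXA9, HOXA10 and HOXA11) together with MEIS1 and PBX3. They were taken by gene name, which matched 1 row each in both deposited count tables, so that 9 of 59428 gene rows were members. RNA-seq read counts of poly(A) RNA were deposited for 35 libraries in 13 groups from 4 human acute myeloid leukaemia (AML) cell lines. Untreated U937 and THP-1 each had 3 libraries labelled SKO (SUV39H1 knocked out), 3 labelled DKO (SUV39H1 and SUV39H2 knocked out) and 3 labelled sgControl (a control guide RNA). U937 cells under a treatment that the labels call TPA, with no dose or time, had the same SKO, DKO and sgControl groups of 3. MOLM-13 had 2 SKO and 2 sgControl libraries, and OCI-AML-3 had 2 DKO and 2 sgControl libraries. SUV39H1 and SUV39H2 encode histone methyltransferases that trimethylate H3K9 and so help to keep chromatin silent.

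HOX proteins are homeodomain transcription factors whose genes lie in clusters in the order in which they are used along the body axis, from the 3′ end to HOXA13 at the 5′ end. In blood, HOXA genes are active in stem and progenitor cells and are shut down as cells mature. HOXA9 in particular is kept on in a large part of AML. MEIS1 and the PBX proteins belong to the TALE class of homeodomain proteins, which bind DNA together with HOX proteins. MEIS1 with HOXA9 transforms mouse bone marrow cells, and PBX3 is the PBX protein most often tied to HOXA9 in AML. Gene fusions and mutations known to keep these genes on are present in the lines, with the PICALM::MLLT10 fusion in U937, KMT2A::MLLT3 in THP-1 and MOLM-13, and mutated NPM1 in OCI-AML-3. All 7 HOXA members lie on the reverse strand of chromosome 7 between 27106184 and 27185232 of hg38, a span of 79.0 kb. MEIS1 lies on the forward strand of chromosome 2 (66433452 to 66573869) and PBX3 on that of chromosome 9 (125747345 to 125967377).

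Counted reads per library ranged from 31985767 to 61178704. The SUV39H1 transcript does not check every label, since a guide can disrupt a gene without removing its RNA. SUV39H1 was at 109 to 116 CPM (reads of the gene per 1e6 counted reads, with library sizes scaled by TMM over all 35 libraries) in the untreated U937 libraries labelled SKO and 82.3 to 83.4 in those labelled DKO, against 62.2 to 68.9 in sgControl, and it was likewise higher in the THP-1 knockout libraries. It was lower in MOLM-13 SKO (7.19 and 8.08 against 27.6 and 29.8 CPM) and OCI-AML-3 DKO (2.74 and 4.23 against 34.9 and 36.8). Directions given for U937 and THP-1 therefore rest on the labels, and SKO and DKO stand below for libraries so labelled. Library names carry clone 3 in untreated U937 DKO and clone 1 in THP-1 SKO and sgControl, so that clone and label cannot be told apart there. A string of digits in these names, which the headers do not explain, also differs between THP-1 DKO and the other THP-1 groups and is missing for U937 DKO. The labels do not say that replicates are separate cultures, and the p-values therefore describe library-to-library spread that may be technical. Of the 10 myeloid markers, 7 to 9 reached 1 CPM in every group, and of 16 markers of other cell types 2 to 5 did. The sum over these 16 ranged from 127 CPM in U937 sgControl to 732 CPM in TPA-treated U937 DKO, and MS4A1 and ALB were at 0 reads in most groups.

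Among the 7 HOXA members, HOXA9, HOXA10 and HOXA11 carried most of the transcript in all 13 groups. Levels per kilobase of exon take account of length, though not of exon bases shared with other genes. On that scale these 3 genes made up 71.6% of the sum over the 7 members in MOLM-13 SKO and 73.3% in MOLM-13 sgControl, and between 88.4% and 97.2% in the other 11 groups. The sum over the 7 HOXA members was highest in MOLM-13 SKO (63.1 CPM per kb) and lowest in TPA-treated U937, where it was 29.1 in SKO, 29.9 in DKO and 29.0 in sgControl. HOXA13, which is no member and is left out of these sums, was at 24.3 CPM per kb in U937 SKO and 22.8 in THP-1 sgControl, above each of the 7 HOXA members in those groups. MOLM-13 stood apart by the 3′ genes, and had HOXA13 at 0.298 CPM per kb in SKO and 1.76 in sgControl. HOXA5, known from lung and skeletal development, made up 13.7% of the sum in MOLM-13 SKO and 12.7% in MOLM-13 sgControl, against at most 6.45% in any other group. Divided by exon bases shared with no other gene, HOXA7 in MOLM-13 SKO was at 6.3 CPM per kb instead of 2.36, while HOXA5, which shares none, stayed at 8.65.

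**Figure D1:**
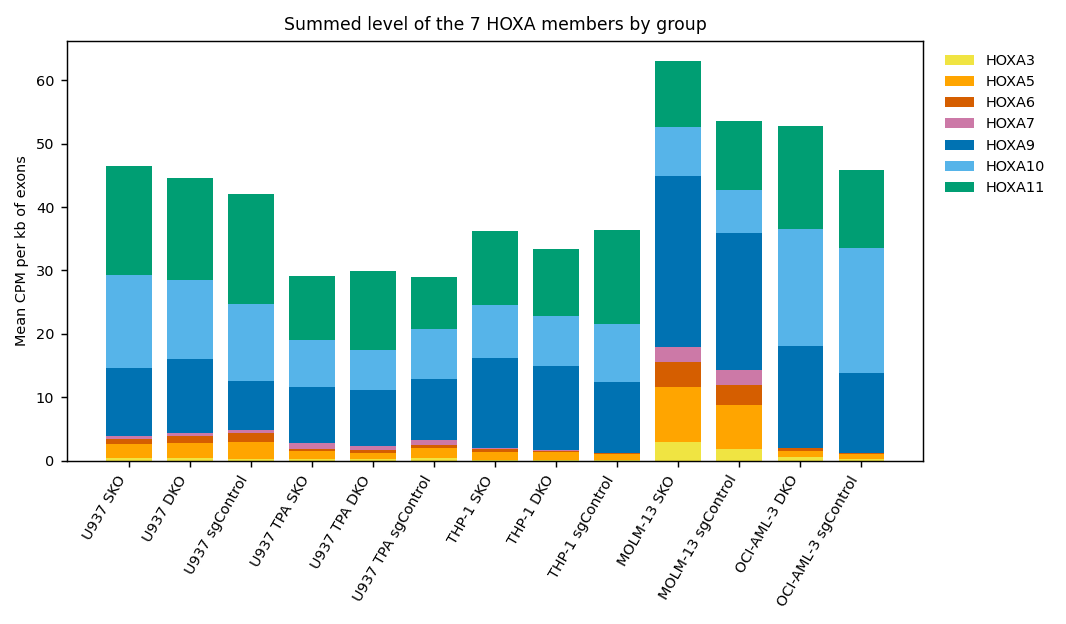
Mean level of the 7 HOXA members in each of the 13 groups, stacked, in CPM per kilobase of exon on a linear axis that starts at 0. HOXA9, HOXA10 and HOXA11 fill 71.6% to 97.2% of each bar, and the share of HOXA3 to HOXA7 is largest in the 2 MOLM-13 groups.

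Between the sgControl groups of different lines most members differed, as did most genes. In sgControl THP-1 against sgControl U937, 2 members were higher and 7 lower, where 76.3% of 18715 genes passed the test (edgeR's quasi-likelihood test with Benjamini-Hochberg adjustment over all genes tested, threshold 0.05). PBX3 was higher in THP-1, at 165, 171 and 164 CPM against 20.8, 20 and 20.5 in U937 (log2 fold change 3.01 ± 0.05, SE). HOXA3, HOXA5, HOXA6 and HOXA7 were lower in THP-1, by log2 fold changes of -1.55 to -2.79. MEIS1 separated the lines most: the 3 THP-1 sgControl libraries held 6 MEIS1 reads in all and the 3 of U937 held 13022. The U937 level was thus 2790 times that of THP-1 (95% counting interval 1280 to 7610, taking each read as independent). The reads of a pair were counted singly in these libraries, so that the interval is too narrow. In sgControl MOLM-13 against sgControl OCI-AML-3, 7 members were higher and 2 lower, where 69.0% of 17711 genes passed. HOXA10 was the member most clearly lower there, at 24.5 and 25.1 CPM in MOLM-13 against 77.1 and 68.7 in OCI-AML-3. HOXA7 had no read in either OCI-AML-3 sgControl library and 514 reads in MOLM-13 sgControl. The lower 95% counting limit of the ratio was 146-fold (180-fold against a floor of 3 reads over the group), taking each read as independent. If the reads of a pair were counted singly in these 2 lines, which is not known, the limit would be lower.

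**Figure D2:**
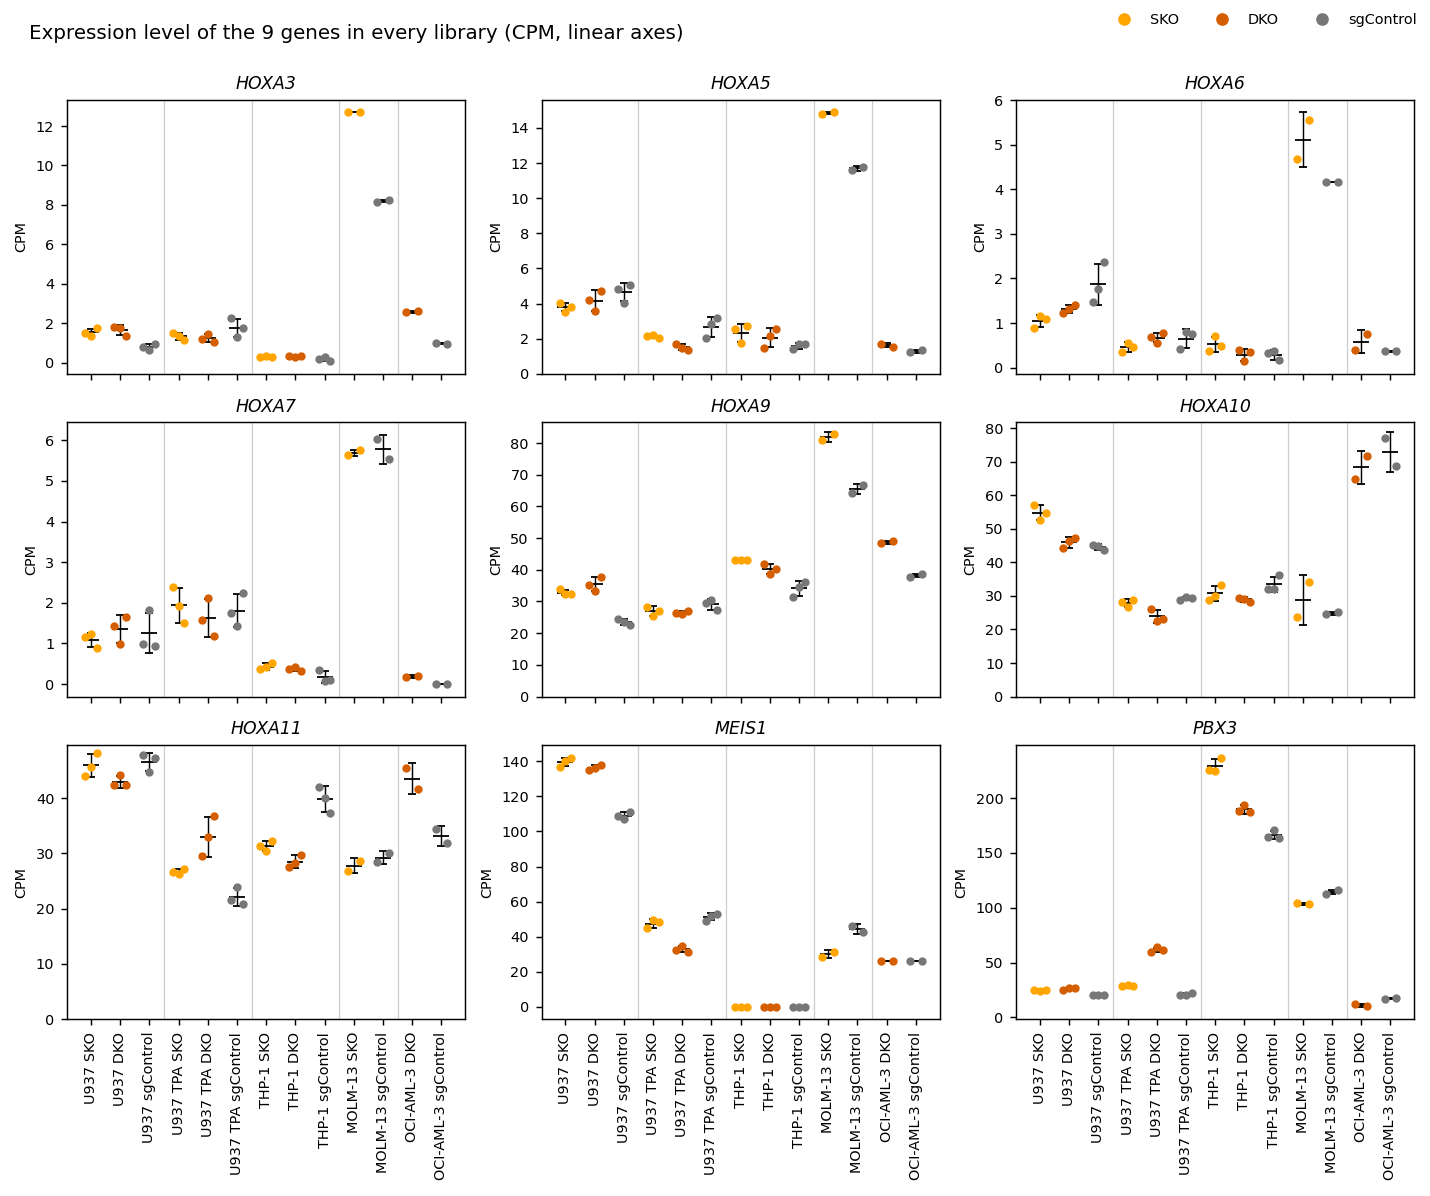
CPM of each of the 9 genes in every library (points), with the group mean and SD (bars), on linear axes with knockout groups left of their sgControl group. HOXA9 lies higher in every untreated knockout group than in the sgControl group of its line, MEIS1 is near 0 in THP-1, and PBX3 is highest in THP-1 and MOLM-13 and higher in TPA-treated DKO than in TPA-treated sgControl.

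By order of level, HOXA9 ran from MOLM-13 SKO (81.9 ± 1.51 CPM, SD, n = 2) down to U937 sgControl (23.5 ± 0.905, n = 3), and 6 of its 12 pairs of neighbouring groups overlapped. HOXA10 ran from OCI-AML-3 sgControl (72.9 ± 5.93 CPM, n = 2) to TPA-treated U937 DKO (23.9 ± 1.9, n = 3), with 8 of 12 neighbouring pairs overlapping. HOXA11 had the narrowest span, 2.11-fold between its highest and lowest group, also with 8 of 12 pairs overlapping. PBX3 was the most finely ordered, with 2 of 12 neighbouring pairs overlapping, from 229 ± 6.9 CPM in THP-1 SKO to 11 ± 1.31 in OCI-AML-3 DKO.

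The knockout comparisons were each made within 1 line and treatment, and SKO and DKO of a line share their sgControl libraries. In U937 SKO, 5 of 9 members rose and 1 fell against sgControl, where 61.9% of all 14915 tested genes passed. In U937 DKO, 4 rose and 1 fell, where 67.7% passed. THP-1 SKO had 2 higher and 1 lower of 8 tested members against a background of 43.5%, and THP-1 DKO had 2 higher and 1 lower of 8 against 65.6%. MOLM-13 SKO had 4 higher and 2 lower of 9, where 64.0% of 15472 genes passed. OCI-AML-3 DKO had 3 higher and 1 lower of 8, where 49.9% of 16175 passed. Under TPA, U937 SKO had 2 higher and 0 lower (50.4% of 16246 genes passed) and U937 DKO had 2 higher and 3 lower (70.6%). The shares of members that passed thus lay at or below the background in most comparisons, and the direction and the identity of the members are what the data add. DKO against SKO gave 1 lower member in U937 (49.0%), 1 lower in THP-1 (53.8%) and 2 higher and 2 lower under TPA (63.7%). The median log2 fold change over the members tested was 0.25 in U937 SKO, 0.10 in U937 DKO, 0.51 in THP-1 SKO, 0.32 in THP-1 DKO, 0.23 in MOLM-13 SKO and 0.34 in OCI-AML-3 DKO. Under TPA it was -0.11 in SKO and -0.14 in DKO, and over all genes it lay between -0.05 and 0.05 in these 8 comparisons. Over the HOXA members alone the median was -0.02 in U937 SKO, 0.04 in U937 DKO, 0.55 in THP-1 SKO and 0.34 in THP-1 DKO. It was 0.31 in MOLM-13 SKO and 0.38 in OCI-AML-3 DKO, and -0.11 and -0.14 in SKO and DKO under TPA. These medians weigh low-count genes as much as abundant ones. In THP-1 SKO the members above 0.51 were HOXA3, HOXA5, HOXA6 and HOXA7, none past the test. HOXA9, HOXA10, HOXA11 and PBX3 were at 0.34, -0.11, -0.34 and 0.47 there.

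**Figure D3:**
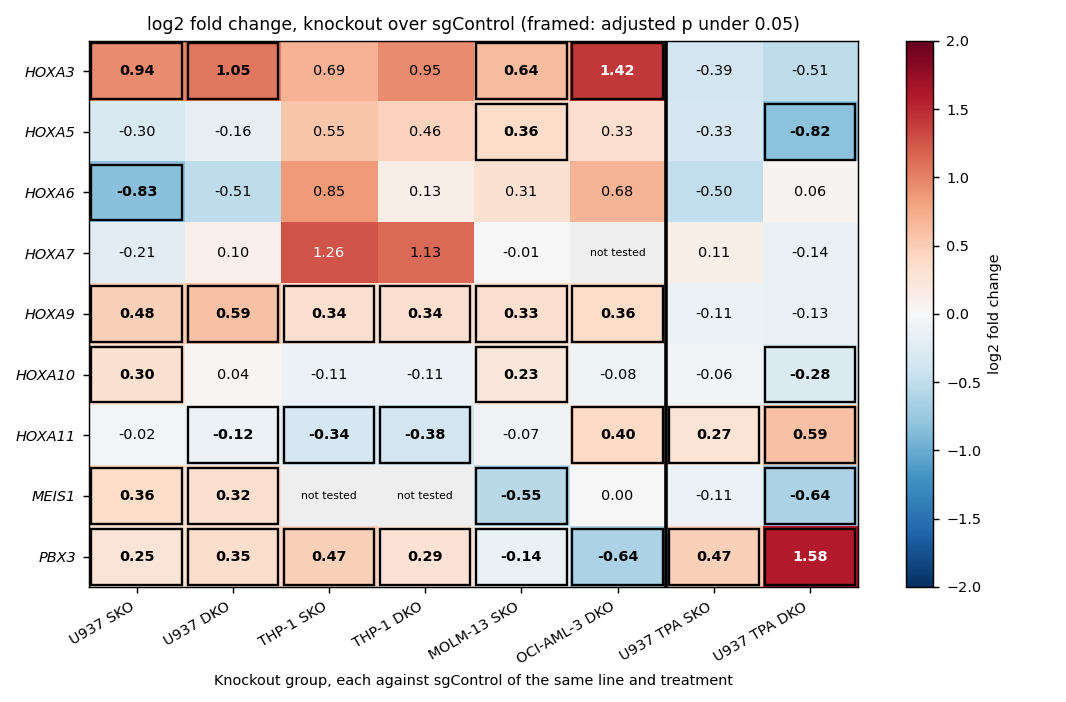
The log2 fold change of each gene in 8 knockout groups, each over sgControl of the same line and treatment, with frames around values that passed the test. HOXA9 is framed and positive in the 6 untreated groups (0.33 to 0.59) and unframed under TPA (-0.11 and -0.13), while MEIS1 and PBX3 take both signs.

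HOXA9 was the member that rose in every untreated knockout group. It had 33.8, 32.3 and 32.4 CPM in U937 SKO and 35.3, 33.4 and 37.8 in U937 DKO, against 24.4, 23.5 and 22.6 in U937 sgControl. In THP-1 it had 43.1, 43 and 43 CPM in SKO and 41.9, 38.6 and 40.1 in DKO, against 31.5, 34.6 and 36.3 in sgControl. All knockout libraries of both lines lay above all sgControl libraries of that line. MOLM-13 SKO held 80.8 and 83 CPM against 64.3 and 66.6 in sgControl, and OCI-AML-3 DKO held 48.3 and 49 against 37.8 and 38.6, again without overlap. The log2 fold changes were 0.48 ± 0.06 in U937 SKO (adjusted p = 1.7e-07) and 0.59 ± 0.06 in U937 DKO (adjusted p = 2.4e-09). They were 0.34 ± 0.06 in both THP-1 SKO (adjusted p = 2.5e-05) and THP-1 DKO (adjusted p = 1.7e-05), 0.33 ± 0.04 in MOLM-13 SKO (adjusted p = 3.7e-08) and 0.36 ± 0.07 in OCI-AML-3 DKO (adjusted p = 2e-05). DKO and SKO did not pass the test against each other in U937 (0.11 ± 0.06, adjusted p = 0.14) or THP-1 (-0.00 ± 0.06, adjusted p = 0.97), although in CPM, which is scaled over all libraries and not over those of THP-1, the THP-1 DKO libraries lay below those of SKO. Part of the HOXA9 row cannot be assigned, since 27% of its exon bases are shared with HOXA10-AS, MIR196B or the readthrough HOXA10-HOXA9, and reads that overlap several genes were left out in the table of untreated U937 and THP-1.

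The promoter of HOXA9 and those of 3 contrasting members are shown for reference, since these genes share neither sign nor size of change across the lines. The windows are from RefSeq (GRCh38.p14), 250 bases before to 50 after the start, and 8 of the 9 members matched the table. Capitals mark matches on either strand to TATAAA, the TATA box, or TGACAG, the core bound by MEIS and related TALE proteins. TGATTNAT, a joint site of HOX and PBX proteins, was searched too, and it was in none of the 15 windows of these members. Each window is 300 bases and is written from 5′ to 3′ on the strand of the gene.
HOXA9 (chr7:27165488-27165787, reverse strand): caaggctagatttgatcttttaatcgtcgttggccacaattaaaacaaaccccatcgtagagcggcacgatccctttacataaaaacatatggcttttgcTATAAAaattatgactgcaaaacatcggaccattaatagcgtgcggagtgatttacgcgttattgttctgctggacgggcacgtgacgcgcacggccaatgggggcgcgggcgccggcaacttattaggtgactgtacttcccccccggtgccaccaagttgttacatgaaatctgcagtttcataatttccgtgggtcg
HOXA11 (chr7:27185183-27185482, reverse strand): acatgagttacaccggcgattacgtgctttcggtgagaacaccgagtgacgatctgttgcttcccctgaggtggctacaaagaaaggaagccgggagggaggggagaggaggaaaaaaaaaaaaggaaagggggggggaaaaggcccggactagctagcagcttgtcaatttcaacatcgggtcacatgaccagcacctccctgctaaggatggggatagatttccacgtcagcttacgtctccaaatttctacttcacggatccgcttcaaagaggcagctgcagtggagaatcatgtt
MEIS1 (chr2:66434875-66435174, forward strand): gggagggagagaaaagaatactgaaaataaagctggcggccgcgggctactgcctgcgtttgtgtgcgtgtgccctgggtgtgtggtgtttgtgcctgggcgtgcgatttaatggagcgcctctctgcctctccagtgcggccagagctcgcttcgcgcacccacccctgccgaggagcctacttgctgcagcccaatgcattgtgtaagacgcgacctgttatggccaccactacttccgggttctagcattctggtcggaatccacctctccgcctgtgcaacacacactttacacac
PBX3 (chr9:125747933-125748232, forward strand): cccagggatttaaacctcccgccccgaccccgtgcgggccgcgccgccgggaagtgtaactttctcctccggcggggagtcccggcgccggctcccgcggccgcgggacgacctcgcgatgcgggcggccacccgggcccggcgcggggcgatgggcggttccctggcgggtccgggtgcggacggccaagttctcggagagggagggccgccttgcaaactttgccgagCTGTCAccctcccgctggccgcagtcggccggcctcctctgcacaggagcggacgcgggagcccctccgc
The HOXA9 window holds 1 TATAAA, 150 bases before the start, and 22 CpG pairs. The windows of HOXA11 and MEIS1 hold none of the 3 motifs and have 13 and 18 CpG pairs, and that of PBX3 holds 1 TGACAG (printed as its reverse complement), 20 bases before the start, and 43 CpG pairs. Of all 35116 windows in the table, 11.5% hold TATAAA, 15.8% TGACAG and 2.82% TGATTNAT, and the median is 14 CpG pairs with quartiles of 4 and 28. A match is a run of letters and not a bound site.

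HOXA10 and HOXA11, the other abundant members, did not follow HOXA9. HOXA10, which like HOXA9 drives myeloid progenitor growth in mice, had 57.1, 52.6 and 54.6 CPM in U937 SKO and 44.2, 46.5 and 47.3 in U937 DKO, against 45.1, 44.9 and 43.6 in sgControl. The SKO libraries were above all others and those of DKO overlapped sgControl. HOXA10 rose in SKO (0.30 ± 0.05, adjusted p = 1.1e-05), did not pass in DKO (0.04 ± 0.05, adjusted p = 0.49), and was lower in DKO than in SKO (-0.25 ± 0.05, adjusted p = 0.00014). In THP-1 its log2 fold changes were -0.11 ± 0.07 in SKO (adjusted p = 0.18) and -0.11 ± 0.07 in DKO (adjusted p = 0.17). In MOLM-13 SKO, HOXA10 had 23.6 and 34 CPM against 24.5 and 25.1 in sgControl, so that its call (0.23 ± 0.09, adjusted p = 0.035) rests on SKO replicate 2 and its value was -0.06 without it.

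HOXA11, which patterns limb, kidney and reproductive tract, moved in different directions by line. In THP-1 it had 31.3, 30.5 and 32.2 CPM in SKO and 27.5, 28.2 and 29.8 in DKO, against 42, 40.1 and 37.4 in sgControl, with no overlap. HOXA11 fell in both (-0.34 ± 0.06 in SKO, adjusted p = 2.4e-05, and -0.38 ± 0.06 in DKO, adjusted p = 3e-06). In OCI-AML-3 it had 45.5 and 41.6 CPM in DKO against 34.5 and 31.9 in sgControl and rose (0.40 ± 0.07, adjusted p = 9e-06). In U937 DKO it was called lower by a small margin (-0.12 ± 0.05, adjusted p = 0.047), and that call was lost without any of DKO replicates 1, 2 and 3 or sgControl replicates 1 and 3 (-0.10 to -0.14). It was lost as well with DESeq2 size factors (adjusted p = 0.079), by the DESeq2 test (0.087) and without a filter on low counts (0.07). The same held with the compared groups alone (0.11) and with a term for a sample code in the library names (0.055). A share of 27.2% of its exon bases lies under the antisense gene HOXA11-AS, and counting took no account of strand in the table of untreated U937 and THP-1. HOXA11-AS moved with HOXA11 in THP-1 SKO (-0.32) and OCI-AML-3 DKO (0.65) and against it in U937 DKO (1.25), all past the test. It also rose in U937 SKO (0.62), where HOXA11 did not pass, and under TPA in SKO (0.60) and DKO (0.83), where HOXA11 rose.

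Among the 3′ genes, which are expressed at low levels outside MOLM-13, HOXA3 rose in 3 of the 4 lines. HOXA3, needed for thymus and parathyroid formation in mice, had 1.5, 1.36 and 1.73 CPM in U937 SKO and 1.82, 1.77 and 1.34 in U937 DKO, against 0.785, 0.661 and 0.942 in sgControl. MOLM-13 SKO held 12.7 and 12.7 CPM against 8.15 and 8.24 in sgControl, and OCI-AML-3 DKO held 2.55 and 2.61 against 0.985 and 0.956. No knockout group overlapped its sgControl group. The log2 fold changes were 0.94 ± 0.28 in U937 SKO (adjusted p = 0.0047), 1.05 ± 0.28 in U937 DKO (adjusted p = 0.0017), 0.64 ± 0.10 in MOLM-13 SKO (adjusted p = 3.2e-06) and 1.42 ± 0.25 in OCI-AML-3 DKO (adjusted p = 4e-06). In THP-1, where HOXA3 had 3 to 18 reads per library, the values were 0.69 ± 0.64 in SKO (adjusted p = 0.42) and 0.95 ± 0.65 in DKO (adjusted p = 0.21). HOXA3 shares 19.85% of its exon bases with other gene rows, among them the antisense gene HOXA-AS2, which itself rose in U937 SKO (1.64), U937 DKO (1.60), MOLM-13 SKO (0.68) and OCI-AML-3 DKO (1.87).

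HOXA5, HOXA6 and HOXA7 gave few calls. HOXA5 rose in MOLM-13 SKO, with 14.8 and 14.9 CPM against 11.6 and 11.8 in sgControl (0.36 ± 0.09, adjusted p = 0.0014), and did not pass in untreated U937, THP-1 or OCI-AML-3. Its values were -0.30 ± 0.15 in U937 SKO and 0.55 ± 0.24 in THP-1 SKO, and these effects differed (-0.84 ± 0.28, adjusted p = 0.014). HOXA6 fell in U937 SKO, with 0.898, 1.15 and 1.09 CPM against 1.47, 1.77 and 2.37 in sgControl (-0.83 ± 0.26, adjusted p = 0.0075), a call lost without sgControl replicate 3 (-0.64, adjusted p = 0.067). HOXA7 passed in no knockout comparison, although its value reached 1.26 ± 0.61 in THP-1 SKO (0.362, 0.415 and 0.519 CPM against 0.356, 0.076 and 0.104 in sgControl, adjusted p = 0.098). Without THP-1 sgControl replicate 1 it passed, at 2.23 in SKO and 2.08 in DKO. In OCI-AML-3 the 2 DKO libraries held 18 HOXA7 reads and the 2 sgControl libraries none. The lower 95% counting limit of the rise in DKO was 4.26-fold (5.81-fold against a floor of 3 reads over the group), taking each read as independent. If the reads of a pair were counted singly in OCI-AML-3, which is not known, the limit would be lower. Of the 2411 exon bases of HOXA7, 62.51% lie under HOXA-AS3 and 904 are its own. In the table of untreated U937 and THP-1, reads on the shared bases were left out, and how they were treated in the table that holds OCI-AML-3 is not given in the sources used here.

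MEIS1, the TALE partner of HOXA9, moved in opposite directions in U937 and MOLM-13. In U937 it had 137, 140 and 142 CPM in SKO and 135, 136 and 138 in DKO, against 109, 107 and 111 in sgControl. It rose without overlap (0.36 ± 0.04 in SKO, adjusted p = 3.1e-09, and 0.32 ± 0.04 in DKO, adjusted p = 2.3e-08). In MOLM-13 it had 28.5 and 31.5 CPM in SKO against 46.3 and 42.5 in sgControl and fell (-0.55 ± 0.06, adjusted p = 3.8e-09). In OCI-AML-3 it had 26.2 and 26.2 CPM in DKO against 26.3 and 26.3 in sgControl (0.00 ± 0.08, adjusted p = 0.97). The THP-1 libraries held 0 to 4 MEIS1 reads each in all 3 groups, so that MEIS1 did not pass the expression filter and no effect was detectable at this depth. THP-1 thus held HOXA9 at 34.1 ± 2.41 CPM (SD, n = 3) in sgControl with hardly any MEIS1.

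PBX3, the PBX protein that joins HOX and MEIS proteins on DNA, passed the test in all 8 comparisons with sgControl. It had 24.7, 23.7 and 24.9 CPM in U937 SKO and 24.9, 26.6 and 27 in U937 DKO, against 20.8, 20 and 20.5 in sgControl. In THP-1 it had 226, 225 and 237 CPM in SKO and 188, 194 and 187 in DKO, against 165, 171 and 164 in sgControl. Both lines showed a rise without overlap (0.25 ± 0.07 and 0.35 ± 0.07 in U937 SKO and DKO, 0.47 ± 0.04 and 0.29 ± 0.04 in THP-1 SKO and DKO, largest adjusted p = 0.0014). The other lines showed a fall. MOLM-13 SKO held 103 ± 0.984 CPM (SD, n = 2) against 115 ± 1.67 in sgControl (-0.14 ± 0.04, adjusted p = 0.0015), and OCI-AML-3 DKO held 12 and 10.1 against 16.8 and 17.9 (-0.64 ± 0.10, adjusted p = 6.1e-07). PBX3 shares no exon base with another gene row. In THP-1 it was lower in DKO than in SKO (-0.18 ± 0.04, adjusted p = 0.00027).

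U937 DKO libraries had lower counts along the part of chromosome 7 that holds the HOXA cluster, and against sgControl HOXA3 and HOXA9 rose there nonetheless. Counting genes whose log2 CPM averaged 2 or more, the 105 within 20 Mb of the cluster had a median log2 fold change of -0.71 in DKO over sgControl, and 80% of them were below 0. The 482 such genes of chromosome 7 had a median of -0.46, against -0.04 over all 10037 genes, -0.12 on chromosome 2 and -0.06 on chromosome 9. The 12 such genes within 1 Mb of the cluster, members included, had a median of 0.14. In that 1 Mb, CBX3, whose product binds trimethylated lysine 9 of histone H3, fell to 236, 249 and 258 CPM in DKO against 508, 487 and 488 in sgControl (adjusted p = 9.9e-20). SKAP2, an adaptor gene of myeloid cells, rose slightly (0.23 ± 0.04, adjusted p = 2.9e-05). In U937 SKO over sgControl the 20 Mb window had a median of -0.04 and the 12 genes nearest the cluster one of 0.54. In DKO over SKO, the 2 medians were -0.61 and -0.42, and that of the 482 genes of chromosome 7 was -0.58, with 94.4% below 0. The drop in that comparison was thus not confined to the surroundings of the cluster. There HOXA3, HOXA9 and HOXA11 did not pass and HOXA10 fell. When the libraries were scaled on the genes of that window instead of on all genes, which moved the median of all genes up by 0.67, HOXA9 was higher by 1.26 ± 0.06 in U937 DKO and the HOXA members lay between 0.16 and 1.72. On that scale HOXA5 (0.51) and HOXA11 (0.55) were above 0 in DKO over sgControl, as was HOXA10 (0.32) in DKO over SKO. Whether the number of chromosome 7 copies differs was not tested, since the files hold only RNA counts.

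**Figure D4:**
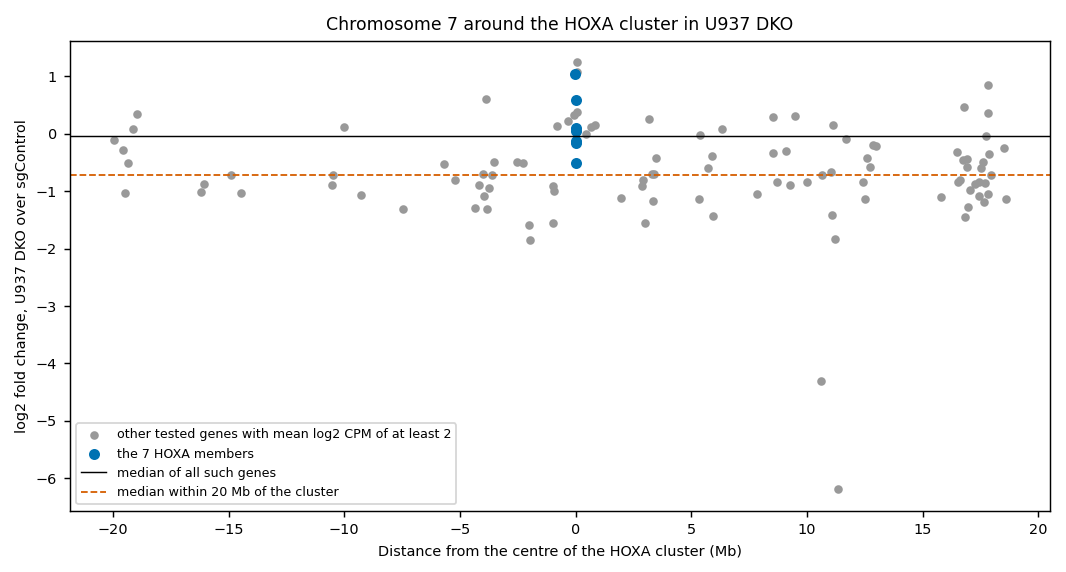
Log2 fold change in U937 DKO over sgControl (vertical axis) against distance in Mb from the centre of the HOXA cluster (horizontal axis), with 1 point per gene. Most genes of the window lie below 0 around the dashed median of -0.71, and the 7 HOXA members lie between -0.51 and 1.05.

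TPA-treated U937 cells allowed the knockout effects to be set against those of untreated cells, although treated and untreated libraries come from 2 tables, so that TPA and table cannot be told apart in direct comparisons. HOXA9 had 28.4, 25.3 and 27 CPM in TPA-treated SKO and 26.4, 26.1 and 26.9 in TPA-treated DKO, against 29.4, 30.6 and 27.3 in TPA-treated sgControl. It did not pass in SKO (-0.11 ± 0.07, adjusted p = 0.18) or DKO (-0.13 ± 0.07, adjusted p = 0.09). Without TPA-treated sgControl replicate 3 the DKO value passed as lower (-0.18, adjusted p = 0.034). The effect under TPA was lower than in untreated cells by the test of the difference itself, by -0.57 ± 0.09 for SKO (adjusted p = 2.8e-06) and -0.70 ± 0.09 for DKO (adjusted p = 4.2e-08). HOXA3 differed in the same sense (-1.32 ± 0.38 for SKO, adjusted p = 0.0047, and -1.54 ± 0.38 for DKO, adjusted p = 0.00086). Of the 9 members, 2 effects were higher and 4 lower under TPA for SKO, where 37.7% of 16989 genes passed, and 2 higher and 5 lower for DKO, where 49.6% passed. Of these, HOXA5 for DKO (-0.64 ± 0.25, adjusted p = 0.033) and PBX3 for SKO (0.23 ± 0.09, adjusted p = 0.031) were lost in 7 and 5 of the 12 fits that each left out 1 library (-0.51 to -0.80 and 0.21 to 0.28).

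HOXA11, MEIS1 and PBX3 also differed, in both directions. HOXA11 had 26.7, 26.3 and 27.1 CPM in TPA-treated SKO and 29.5, 32.9 and 36.7 in TPA-treated DKO, against 21.5, 24 and 20.9 in sgControl, and it rose in both (0.27 ± 0.07, adjusted p = 0.0032, and 0.59 ± 0.07, adjusted p = 8.7e-08). MEIS1 had 44.7, 49.6 and 48.2 CPM in TPA-treated SKO and 32.4, 34.7 and 31.3 in TPA-treated DKO, against 49.1, 51.9 and 53 in sgControl. It fell in DKO (-0.64 ± 0.06, adjusted p = 1e-10) and did not pass in SKO (-0.11 ± 0.05, adjusted p = 0.11). PBX3 had the largest change of any member under TPA, with 59.9, 63.8 and 61.7 CPM in DKO and 28.3, 29.6 and 28.6 in SKO, against 20.5, 20.1 and 22 in sgControl. It rose by 1.58 ± 0.06 in DKO (adjusted p = 3.2e-19) and 0.47 ± 0.06 in SKO (adjusted p = 1.5e-07), and DKO was above SKO by 1.11 ± 0.06 (adjusted p = 7e-16). The DKO effect on PBX3 was larger under TPA than without it by 1.24 ± 0.08 (adjusted p = 4.2e-15), and that on MEIS1 was lower by -0.94 ± 0.07 (adjusted p = 9.4e-15). HOXA10 fell in TPA-treated DKO (-0.28 ± 0.07, adjusted p = 0.00057) and HOXA5 did too (-0.82 ± 0.22, adjusted p = 0.0016). Scaled on the chromosome 7 window, HOXA9 in TPA-treated DKO was higher (0.48), HOXA10 was higher (0.32) and HOXA5 no longer passed (-0.22), since that window had a median of -0.65 in this comparison as well.

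**Figure D5:**
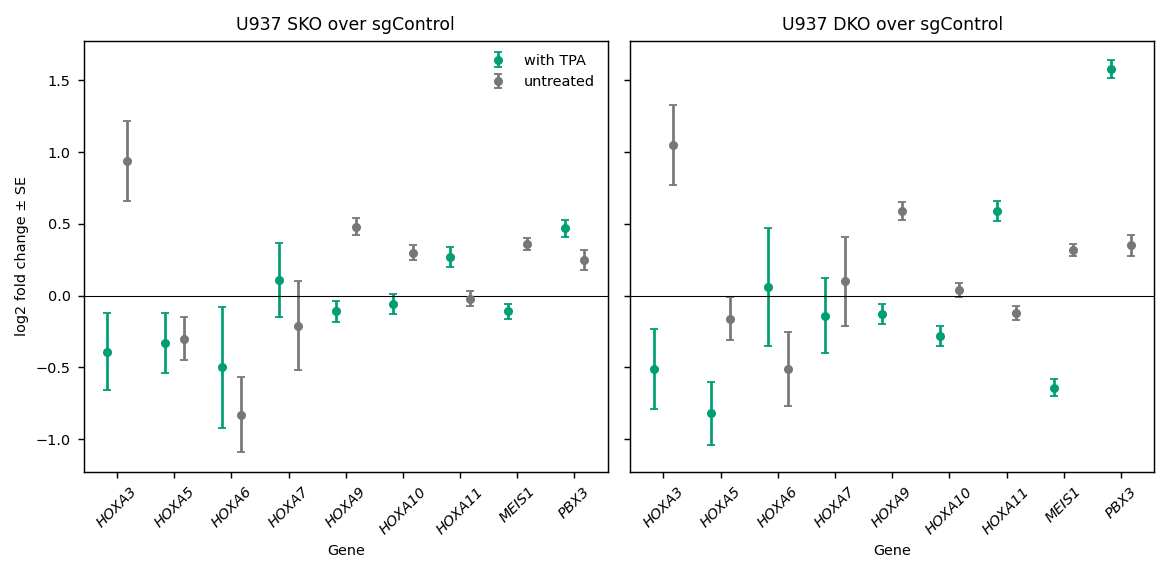
Log2 fold change with its SE for each gene in U937 SKO (left) and DKO (right) over sgControl, in TPA-treated cells (green) and untreated cells (grey). HOXA3, HOXA9 and MEIS1 are above 0 in untreated cells and below 0 under TPA, and PBX3 in DKO is at 1.58 under TPA and 0.35 without it.

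Set against untreated cells of the same label, TPA-treated cells had lower levels of most members. In DKO, 1 of 9 members was higher and 6 lower (73.1% of 16989 genes passed), in SKO 2 were higher and 6 lower (62.9%), and in sgControl 2 were higher and 5 lower (67.7%). MEIS1 was lower with TPA by -2.01 ± 0.05 in DKO, -1.53 ± 0.05 in SKO and -1.08 ± 0.04 in sgControl. HOXA10, HOXA11, HOXA5 and HOXA6 were lower in all 3 labels. HOXA9 was lower with TPA in DKO (-0.38 ± 0.06, adjusted p = 2.3e-06) and SKO (-0.26 ± 0.06, adjusted p = 0.0007) and higher in sgControl (0.32 ± 0.06, adjusted p = 4.6e-05). PBX3 was higher in DKO (1.28 ± 0.06) and SKO (0.27 ± 0.06) and did not pass in sgControl (0.04 ± 0.06, adjusted p = 0.6). CD14, a marker of mature monocytes, was at 25.6 to 27.9 CPM in TPA-treated DKO, 5.52 to 5.98 in SKO and 12.3 to 12.7 in sgControl, against at most 0.236 in untreated U937 libraries.

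The knockout effects of U937 and THP-1 were compared by a contrast of contrasts over 18 libraries. For SKO, 2 members were higher and 3 lower in U937, where 46.9% of 18715 genes passed, and for DKO 2 were higher and 0 lower, where 54.4% passed. HOXA9 did not differ past the test for SKO (0.15 ± 0.09, adjusted p = 0.19) and was higher in U937 for DKO (0.29 ± 0.09, adjusted p = 0.0054), a call lost without U937 sgControl replicate 3 (0.16), DKO replicate 1 (0.20) or DKO replicate 3 (0.15). HOXA10 (0.42 ± 0.08, adjusted p = 7e-05) and HOXA11 (0.33 ± 0.08, adjusted p = 0.00078) were higher in U937 for SKO, while HOXA6 (-1.67 ± 0.54, adjusted p = 0.0098) and PBX3 (-0.20 ± 0.06, adjusted p = 0.0092) were lower. HOXA11 was also higher in U937 for DKO (0.30 ± 0.08, adjusted p = 0.002), a call lost without U937 sgControl replicate 3 (0.20) or DKO replicate 2 (0.18).

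Other genes of the HOXA cluster moved with the members in some lines and against them in others. Of 11 further cluster genes, 8 were tested in U937, and 6 rose in SKO and 5 in DKO with none lower (medians 0.75 and 0.62, all genes 0.00 and -0.01). In OCI-AML-3 DKO 8 of 10 tested rose and none fell (median 0.77, all genes 0.02). In THP-1 the counts were 1 higher and 3 lower of 6 in SKO, and 1 higher and 2 lower of 6 in DKO. Of all genes tested, 61.9% passed in U937 SKO, 67.7% in U937 DKO, 43.5% in THP-1 SKO, 65.6% in THP-1 DKO and 49.9% in OCI-AML-3 DKO. HOXA13, the last gene at the 5′ end and a regulator of limb and urogenital development, had 123, 121 and 126 CPM in U937 SKO and 114, 120 and 121 in U937 DKO, against 50.2, 59.3 and 57.8 in sgControl. In THP-1 it had 52, 44.2 and 45.3 CPM in SKO and 41, 42.8 and 42.8 in DKO, against 116, 115 and 116 in sgControl. Thus it rose in U937 (1.14 ± 0.05 in SKO, 1.08 ± 0.05 in DKO) and fell in THP-1 (-1.28 ± 0.05 and -1.35 ± 0.06), a difference between lines of 2.44 for SKO and 2.47 for DKO. HOXA13 also fell in MOLM-13 SKO (-2.55), with 1.52 and 1.49 CPM against 8.05 and 9.77. HOTTIP, the long noncoding RNA beside HOXA13 known to bring a KMT2 complex to the 5′ genes, likewise rose in U937 SKO (0.87) and fell in THP-1 SKO (-1.19). HOTAIRM1, a noncoding RNA at the 3′ end that marks myeloid maturation, rose in MOLM-13 SKO (2.06) and OCI-AML-3 DKO (0.85).

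Of the other HOX clusters, none of 10 HOXB genes passed the expression filter in U937 or MOLM-13, 4 did in THP-1 and 9 in OCI-AML-3. HOXB13 rose in THP-1 SKO (2.45) and DKO (4.22), with 1.23, 1.6 and 1.35 CPM in DKO and 0.458, 0.45 and 0.394 in SKO against 0.075, 0.114 and 0.0418 in sgControl. In OCI-AML-3 DKO, 3 HOXB genes rose and 3 fell of 9, where 49.9% of all genes passed. Among 18 HOXC and HOXD genes, 6 were tested in U937, of which HOXC9 fell most (-2.19 in SKO, -2.54 in DKO). Of 11 other TALE genes, 4 rose and 3 fell of 9 tested in U937 SKO (61.9% of all genes passed), and 5 rose and 4 fell in U937 DKO (67.7%). MEIS2 rose in U937 SKO (0.85) and fell in MOLM-13 SKO (-3.64), where it had 1.12 and 0.896 CPM against 12.9 and 12.4 in sgControl. MEIS1 and MEIS2 were thus lower in MOLM-13 SKO, while HOXA3, HOXA5 and HOXA9 were higher.

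Genes known to keep the HOXA cluster on or off were among those that passed in both directions. Of all genes tested, 61.9% passed in U937 SKO, 67.7% in U937 DKO, 65.6% in THP-1 DKO, 64.0% in MOLM-13 SKO and 49.9% in OCI-AML-3 DKO. Of 18 genes of the MLL and DOT1L complexes, 6 rose and 4 fell in U937 SKO and 7 rose and 5 fell in U937 DKO, while 3 rose and 11 fell in THP-1 DKO (median -0.16), 4 rose and 13 fell in MOLM-13 SKO (median -0.27) and 2 rose and 10 fell in OCI-AML-3 DKO (median -0.20). PSIP1, whose product tethers the MLL1 complex to chromatin, fell in MOLM-13 SKO (-1.30), OCI-AML-3 DKO (-0.77), THP-1 DKO (-0.76) and TPA-treated U937 DKO (-2.01). Of 22 Polycomb group genes, 7 rose and 11 fell in both U937 SKO and U937 DKO, 7 rose and 13 fell of 21 tested in THP-1 DKO, and 4 rose and 15 fell in MOLM-13 SKO. In OCI-AML-3 DKO 5 of them rose and 9 fell. In THP-1 SKO, 6 MLL and DOT1L genes rose and 6 fell, and 5 Polycomb genes rose and 7 fell (43.5% of all genes passed). Under TPA, 5 MLL and DOT1L genes rose and 7 fell in SKO (50.4%), and 9 rose and 8 fell in DKO (70.6%). Of the Polycomb genes, 6 rose and 9 fell in TPA-treated SKO, and 8 rose and 12 fell in TPA-treated DKO. EZH2, the methyltransferase of lysine 27 of histone H3 and itself a chromosome 7 gene, fell in U937 DKO (-0.74), MOLM-13 SKO (-1.06) and OCI-AML-3 DKO (-0.64). It also fell in TPA-treated U937 DKO (-1.37) and rose in U937 SKO (0.44). HOXA9 rose in all of these groups other than those under TPA.

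Of 20 genes reported as HOXA9 and MEIS1 targets, more rose than fell in 6 of the 8 knockout groups. In U937, 12 rose and 6 fell of 19 tested in SKO (median 0.26) and 12 rose and 5 fell in DKO (median 0.23). In THP-1, 8 rose and 5 fell of 17 in SKO (median 0.29) and 9 rose and 6 fell in DKO (median 0.47). MOLM-13 SKO had 7 higher and 4 lower of 13 (median 0.20), and TPA-treated U937 SKO had 11 higher and 4 lower of 19 (median 0.27). OCI-AML-3 DKO had 7 higher and 7 lower of 18 (median -0.06), and TPA-treated U937 DKO had 7 higher and 11 lower of 19 (median -0.33). The medians over all genes lay between -0.05 and 0.05, and the shares of all genes that passed are those given above for each comparison (43.5% to 70.6%). FLT3, a receptor kinase gene, fell in U937 SKO (-2.42) and DKO (-2.54) and rose in THP-1 SKO (2.62), THP-1 DKO (2.11) and MOLM-13 SKO (0.67). PIM1, a survival kinase gene, rose in U937 SKO (2.59) and MOLM-13 SKO (1.75) and fell in OCI-AML-3 DKO (-1.73).

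The summed level of 10 myeloid markers was higher in 7 of the 8 knockout groups than in their sgControl groups. It was 1150 to 1170 CPM in U937 SKO and 1150 to 1200 in U937 DKO against 579 to 583 in sgControl. It was 8690 to 8800 CPM in MOLM-13 SKO against 1480 to 1540 in sgControl, mostly through the lysozyme gene LYZ, and 1920 to 1950 in OCI-AML-3 DKO against 893 to 927. THP-1 had 1170 to 1230 in SKO and 1520 to 1530 in DKO against 1050 to 1100, and TPA-treated U937 had 1320 to 1360 in SKO and 1770 to 1840 in DKO against 1370 to 1400. Single markers also fell, with 3 lower of 10 tested in THP-1 SKO, in TPA-treated U937 SKO and in TPA-treated U937 DKO, and LYZ fell under TPA in SKO (-1.70) and DKO (-1.96). The sum over the 16 markers of other cell types was 201 to 212 CPM in U937 SKO and 289 to 303 in U937 DKO against 127 to 134 in sgControl, 352 to 361 in MOLM-13 SKO against 140 to 142, and 325 to 327 in OCI-AML-3 DKO against 206. In THP-1 it was 400 to 427 in SKO and 498 to 509 in DKO against 627 to 700 in sgControl, and under TPA 625 to 636 in SKO and 702 to 732 in DKO against 618 to 634. Single genes of this list did not follow the sum. In U937, 2 were higher and 3 lower of 7 tested in SKO, and 1 was higher and 4 lower in DKO. In MOLM-13 SKO and in OCI-AML-3 DKO, 1 was higher and 2 lower of 5. In THP-1, 0 were higher, with 3 lower of 5 in SKO and 2 in DKO. Under TPA, 1 was higher and 2 lower of 7 in SKO, and 3 were higher and 1 lower in DKO. The shares of all genes that passed are given above for each comparison. ITGAM, a marker of maturing myeloid cells, rose in U937 SKO (4.07), U937 DKO (5.03) and MOLM-13 SKO (2.78) and fell in THP-1 SKO (-0.76). HOXA9 rose in groups of both kinds. The part of either marker list in the changes of the members was not tested, and in bulk RNA fewer cells that express a gene and less RNA per cell cannot be told apart.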

How the data were processed

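Poly(A) RNA was sequenced from 35 libraries of 4 AML lines. The deposited values are raw read counts per gene: per the file headers, the authors counted hg38 alignments over GENCODE exons with featureCounts, by gene name, without strand, with the reads of a pair counted singly and reads over several genes left out. This header stands on the table of untreated U937 and THP-1; the counting command of the other table is not given in the sources used here. The submitters' processing notes list fastp 0.23.4, STAR 2.7.11b and Subread 2.0.6.

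Groups were taken from the labels. In each of 8 fits, genes were filtered by filterByExpr, scaled by TMM and tested with edgeR 4.0.16 (quasi-likelihood) in R 4.3.3, with Benjamini-Hochberg adjustment over all genes tested and a threshold of 0.05. Errors of log2 fold changes are SEs, from the size of the change and its F statistic. CPM levels use TMM over all 35 libraries, so they differ from a fit's own scaling, for example in THP-1 DKO (PBX3 has a fitted change of 0.29 with means of 190 in DKO and 167 in sgControl). DESeq2 1.42.0 was an alternative, beside other scalings, no filter, a replicate block and leaving out each library. Simulated data were used to test the fit of untreated U937 (SKO over sgControl) and that of OCI-AML-3 (DKO over sgControl), and no other fit. All 31 replicate pairs differed beyond counting noise (chi-square per degree of freedom of 2.968 or more). Intervals and floors cover counting error only and take each read as independent. They are too narrow where the reads of a pair were counted singly.

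The 9 members and the gene lists were chosen with earlier results of these data known. Besides members, genes were named by rule: in any knockout or TPA comparison, up to 3 per list that passed with the greatest change, up to 5 of the same kind within 1 Mb of the cluster, and the 3 most like HOXA9, HOXA10, MEIS1 and PBX3. Values of these genes in further comparisons, and CBX3 and SKAP2, were chosen after their values were seen. Some genes of the lists are not reported here.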

Additional observations from a re-analysis of the deposited data

Results flagged for a closer look

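The following knockout effects differed between 2 settings by a test of the difference itself (edgeR's quasi-likelihood test on a contrast of contrasts, with Benjamini-Hochberg adjustment over all genes tested). Between TPA-treated and untreated U937, the SKO effect was lower under TPA for HOXA3 (-1.32 on the log2 scale), HOXA9 (-0.57), MEIS1 (-0.45) and HOXA10 (-0.35), and higher for HOXA11 (0.31) and PBX3 (0.23). That of PBX3 missed the threshold without a filter on low counts (adjusted p = 0.056), with the replicate block (0.062) and in 5 of 12 fits without 1 library. The DKO effect was lower under TPA for HOXA3 (-1.54), MEIS1 (-0.94), HOXA9 (-0.70), HOXA5 (-0.64) and HOXA10 (-0.31), and higher for PBX3 (1.24) and HOXA11 (0.72). That of HOXA5 missed it with DESeq2 size factors (adjusted p = 0.055), the DESeq2 test (0.059) and no filter (0.06), and in 7 of 12 fits without 1 library. HOXA9, HOXA3 and MEIS1 thus rose in untreated SKO and DKO and in neither group under TPA, and PBX3 rose in all 4. In U937 minus THP-1, the SKO effect was lower for HOXA6 (-1.67), HOXA5 (-0.84) and PBX3 (-0.20), and higher for HOXA10 (0.42) and HOXA11 (0.33). The DKO effect was higher in U937 for HOXA11 (0.30) and HOXA9 (0.29), calls lost in 2 and 3 of 12 fits without 1 library. The treated libraries are in another table than the untreated ones, and U937 DKO libraries had lower counts around HOXA on chromosome 7, and the part of either in these differences was not tested.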

How the results depend on the processing

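HOXA9 in the 6 untreated knockout groups kept its direction and its call under every alternative run. With DESeq2 size factors, 173 of 176 member values kept their direction and side of the threshold, with the DESeq2 test 172, without a filter 173, with the compared groups alone all but 1 of 105, and with a term for the sample code S0_L001 in U937, chosen after seeing the data, 26 of 27. Values past the test in neither fit were not counted as turned. Scaling on the genes around HOXA on chromosome 7 kept 89 of 111 and turned 9: in U937 DKO over sgControl HOXA5 (0.51) and HOXA11 (0.55), in U937 DKO over SKO HOXA10 (0.32) and HOXA11 (0.47), in TPA-treated U937 DKO over sgControl HOXA9 (0.48) and HOXA10 (0.32), in TPA-treated U937 DKO over SKO HOXA9 (0.48) and HOXA10 (0.28), and in sgControl THP-1 over U937 HOXA11 (0.01). By construction this scaling moves every gene, by 0.67 at the median in U937 DKO over sgControl. Leaving out 1 library kept 1162 of 1220. It moved HOXA10 in MOLM-13 SKO between -0.06 and 0.45, and the count of members whose DKO effect differed between U937 and THP-1 between 0 and 5, against 2 with all libraries. The cause was not tested.

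Same-numbered replicates deviated together little in most pairs (45 correlations of -0.08 to 0.28). The 6 correlations over 0.1 all lay among the untreated U937 and THP-1 libraries. Whether the numbers mark a shared culture or day was not tested. With a replicate block, 175 of 176 member values kept their call, and PBX3 in the SKO effect, TPA minus untreated (0.23), missed it at an adjusted p of 0.062 by edgeR. Depth limits HOXA3, HOXA6 and HOXA7 in THP-1 and HOXA7 in OCI-AML-3, where few reads were counted.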

Other observations

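As a description over 13 group means, which share lines and control groups, the genes most like HOXA9 in log2 CPM among 11681 genes were ZNF34 (Pearson's r 0.96), DGAT1 (0.96) and SPPL2B (0.95). Those most like MEIS1 were MKKS (0.99), NR6A1 (0.98) and FUNDC1 (0.98), and those most like PBX3 were TMEM45A (0.97), MPPE1 (0.96) and CDC40 (0.95). HOXA10 was most like WDR55 (0.95), NDUFA8 (0.94) and ODAD2 (0.93). Among the members, HOXA5 and HOXA6, which are neighbours in the cluster, had an r of 0.97, while HOXA9 and HOXA10 had -0.08 and MEIS1 and PBX3 had -0.76.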
